A study of Mus musculus with 19 samples.

Results

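The potassium channel gene family of the mouse heart was described across 19 hearts. Members were the genes of the expression table whose symbol starts with Kcn, followed by letters and a digit. The rule found 91 members among 29726 genes, and it used names only, no measured value. They comprised 36 voltage-gated pore-forming (alpha) subunits, 15 inward rectifiers, 12 tandem-pore channels, 8 calcium- or sodium-activated channels, 16 auxiliary subunits and 4 non-coding transcripts named after a channel gene.

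The hearts came from wild-type C57BL/6NTac mice that had been raised germ-free and were 2 months old. The mice were colonised with a normal microbiome taken from wild-type donors, or with a dysbiotic microbiome taken from donors that lack Il10, the gene of an anti-inflammatory cytokine. The Il10 deletion was therefore in the donors and not in the mice measured. There were 4 males and 5 females with the normal microbiome, and 5 males and 5 females with the dysbiotic microbiome. RNA was prepared from a frozen piece of heart, and libraries were made from polyadenylated RNA. The labels name no cage, litter, donor animal or sequencing batch, so the p-values below measure the spread between these hearts.

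Potassium channels let potassium leave the cell and so end the action potential and hold the resting membrane potential. Mouse ventricular myocytes repolarise mainly through the transient outward current of Kv4 channels and through slower sustained currents such as that of Kv1.5, whereas the delayed rectifiers of KCNH2 (hERG) and KCNQ1 dominate in larger mammals. Inward rectifiers stabilise the resting potential, open when ATP is low, or respond to acetylcholine in atrial and nodal cells. Auxiliary subunits such as KChIP2, encoded by Kcnip2, set how many channels reach the membrane and how fast they inactivate.

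Levels are fragments per kilobase of transcript, scaled to a common number of mapped fragments (FPKM), and so are adjusted for transcript length. The summed level of all genes was 593308 to 656300 FPKM per library, and mitochondrially encoded genes took 51.1% to 57.4% of it. An estimate from the smallest values gave 16.3 to 23.0 M read pairs per library, but only 16.9% to 21.8% of low values lay on whole-read steps, so read counts could not be recovered. The labels call the samples cardiocytes. All markers on the lists for atrial and ventricular myocytes were detected, and so were those for fibroblasts, endothelial cells and macrophages, so the samples are described here as whole tissue. Albumin, a liver gene, ranged from 0.0522 to 449 FPKM. Libraries at its extremes were normal male 1, dysbiotic male 5 and dysbiotic females 3 and 5, and results that depended on them are given with and without them.

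A mean of at least 0.5 FPKM over the 19 libraries, taken as expressed, was reached by 25 of the 91 members. Of these, 8 averaged at least 10 FPKM, 8 lay between 1 and 10, and 9 between 0.5 and 1. Among the members below 0.5 FPKM, 15 were above 0.1, 28 lay between 0.01 and 0.1, and 23 were under 0.01. The expressed members comprised 10 voltage-gated alpha subunits, 6 inward rectifiers, 2 tandem-pore channels, 2 calcium-activated channels and 5 auxiliary subunits, and none of the non-coding transcripts. Inward rectifiers made up 37.4% of the family's summed level, voltage-gated alpha subunits 25.4%, auxiliary subunits 17.7%, tandem-pore channels 17.3% and calcium- or sodium-activated channels 2.13%.

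Kcnk3, which encodes the tandem-pore background channel TASK-1, had the highest mean level at 33.0 FPKM, with a range of 25.8 to 37.8. Kcnip2 averaged 31.9 FPKM, and Kcnj11, the Kir6.2 pore of the ATP-sensitive channel, 26.7 FPKM. These 3 genes held 45.8% of the family's summed level, and the 8 members above 10 FPKM held 76.0%. The others above 10 FPKM were Kcnh2 at 14.5, the acetylcholine-activated subunits Kcnj3 at 13.7 and Kcnj5 at 10.8, the silent modifier subunit Kcng2 at 11.0, and Kcnj8, the vascular Kir6.1 pore, at 10.3 FPKM. Neighbours in this order lay close together: the ranges of Kcnk3 and Kcnip2 overlapped, and so did those of Kcng2, Kcnj5 and Kcnj8.

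Middle levels belonged to Kcnq1 (7.68 FPKM), the Kv1.5 gene Kcna5 (7.03), the Kir2 genes Kcnj2 (6.88) and Kcnj12 (5.78), the small-conductance channel Kcnn1 (2.68), the Kv4.2 gene Kcnd2 (2.11) and the silent subunit Kcnv2 (1.57). The Kv4.3 gene Kcnd3 averaged 0.900 FPKM and Kcne1, the partner of Kcnq1, 0.719. The lowest expressed members were Kcnk6 at 0.651 and Kcnmb1, the smooth muscle subunit of the large-conductance channel, at 0.632 FPKM. Just below the level of 0.5 lay the sodium-activated Kcnt2 at 0.460 FPKM. Kcne2, a described partner of Kcnh2, averaged 0.00436 FPKM, and Kcna4, which carries the slow transient outward current, 0.134 FPKM. At least 1 library listed 36 of the members at 0, and no member was listed at 0 in all 19.

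**Figure D1:**
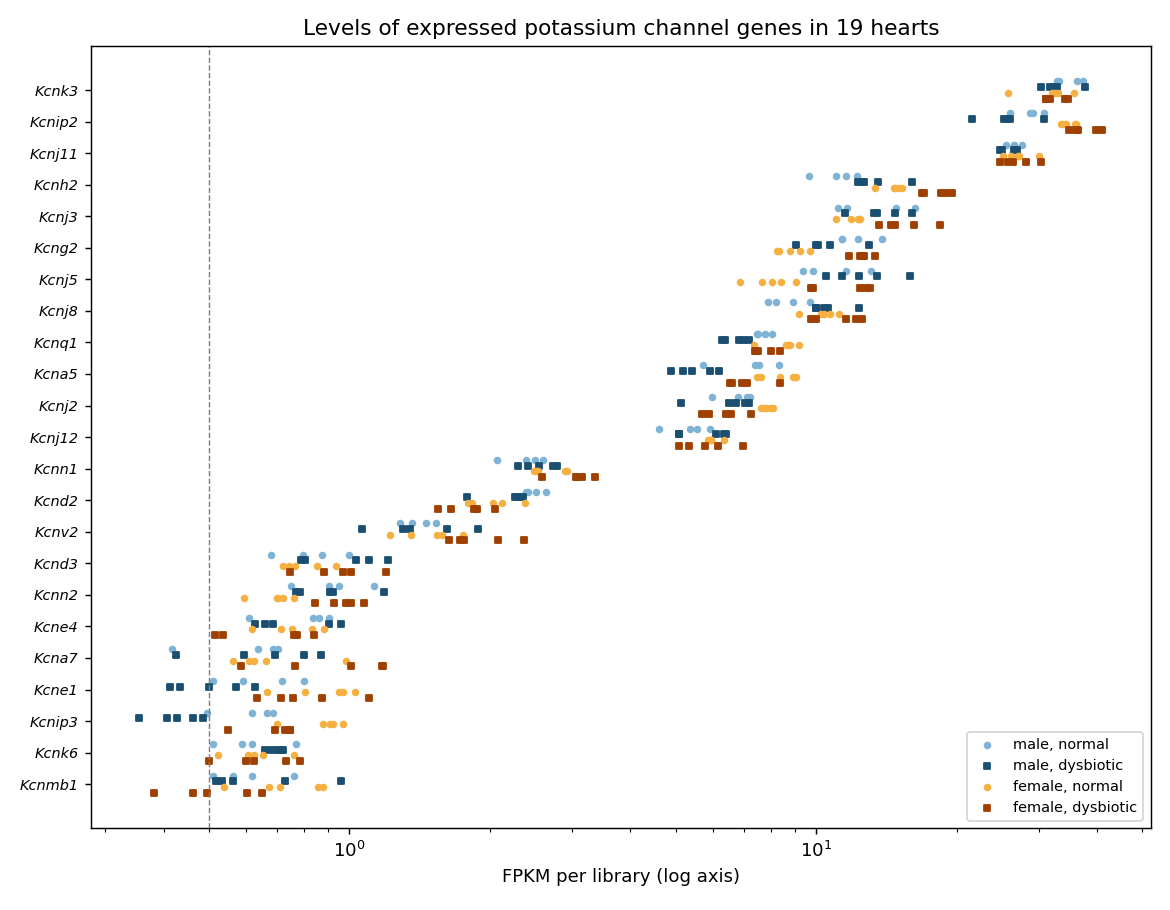
Level of 23 of the 25 expressed members in each library (log axis, FPKM), with symbols for the 4 groups and a dashed line at 0.5 FPKM. Kcnk3, Kcnip2 and Kcnj11 lie above 20 FPKM in every library, and Kcnip2 separates the sexes.

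Spread within groups was similar to that of other genes: the median within-group coefficient of variation was 11.2% over the 26 members tested and 10.5% over the 12989 genes tested. It was lowest for Kcnj11 (5.96%) and highest for Kcna7 (26.3%). The family's summed level had group medians of 195 FPKM in normal males, 195 in dysbiotic males, 199 in normal females and 214 in dysbiotic females.

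For the comparisons, a gene was tested with limma, if 4 or more libraries held 0.5 FPKM or more of it, on log2(FPKM + 1), a scale on which changes of low genes are understated. That filter kept the 25 expressed members and Kcnt2. With both sexes averaged, 5 of the 26 tested members (19.2%) differed between dysbiotic and normal hearts at an adjusted p under 0.05, against 5.04% of all genes tested. Kcnh2 and Kcnj5 rose (3.03% of all genes did), and Kcna5, Kcnq1 and Kcnip3 fell (2.01% of all genes did). The median change was 0.01 over the members and 0.02 over all genes (log2). In bulk tissue, fewer cells of a type and less RNA per cell cannot be told apart.

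The sequences upstream of the most changed members are shown first: the 250 bases before the transcript start, from RefSeq on GRCm38.p6, 5′ to 3′ on the gene's strand. Kcnh2 and Kcnj5 rose, Kcna5 had the largest fall on the log2(FPKM + 1) scale (as a ratio of means, Kcnip3 fell further), and Kcnj3 encodes the channel partner of Kcnj5. Capitals mark CACCC or its complement GGGTG, letters found in sites of KLF factors. The windows are chr5:24329592-24329841 (minus strand), chr9:32344345-32344594 (minus strand), chr6:126535556-126535805 (minus strand) and chr2:55435720-55435969 (plus strand). Kcnh2 has several starts, and this window lies inside the gene's annotated span.
Kcnh2: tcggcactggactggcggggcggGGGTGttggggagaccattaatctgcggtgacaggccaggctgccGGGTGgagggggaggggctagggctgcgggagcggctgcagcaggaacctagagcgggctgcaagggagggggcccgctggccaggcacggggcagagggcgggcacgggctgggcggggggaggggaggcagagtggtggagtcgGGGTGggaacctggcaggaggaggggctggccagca
Kcnj5: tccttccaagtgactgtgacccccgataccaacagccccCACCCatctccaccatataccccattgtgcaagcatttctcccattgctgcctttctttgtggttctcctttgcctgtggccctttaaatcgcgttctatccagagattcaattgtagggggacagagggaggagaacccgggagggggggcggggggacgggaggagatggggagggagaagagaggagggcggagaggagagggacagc
Kcna5: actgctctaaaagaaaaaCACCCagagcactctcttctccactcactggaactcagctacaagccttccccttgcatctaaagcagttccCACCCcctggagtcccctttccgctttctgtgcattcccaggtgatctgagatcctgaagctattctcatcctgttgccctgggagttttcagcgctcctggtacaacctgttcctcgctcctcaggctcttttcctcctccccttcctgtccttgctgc
Kcnj3: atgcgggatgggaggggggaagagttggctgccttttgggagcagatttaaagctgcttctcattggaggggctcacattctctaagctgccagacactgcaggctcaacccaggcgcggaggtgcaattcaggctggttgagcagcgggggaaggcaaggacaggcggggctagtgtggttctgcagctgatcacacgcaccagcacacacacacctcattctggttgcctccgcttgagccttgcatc
The letters occurred 3 times upstream of Kcnh2, once upstream of Kcnj5 and 2 times upstream of Kcna5, and not in the Kcnj3 window. They are common, present in 52.0% of 32851 mouse promoter windows and in 14 of the 15 expressed members that had an entry. Base composition differed, with 73.6% GC and 14 CpG upstream of Kcnh2, 58.0% and 7 for Kcnj5, 53.2% and 3 for Kcna5, and 58.4% and 7 for Kcnj3, where the median over all windows was 52.4% and 6. On both strands, the E-box CACGTG (6.02% of all windows), the D-box TTATGNAA (3.07%), the ROR core AGGTCA (14.0%), the T-box letters TCACACC (3.33%), the GATA letters AGATAA (9.99%) and the NKX letters TNAAGTG (10.1%) were not found in these 4 windows.

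Kcnh2 encodes the pore of the rapid delayed rectifier and lies on chromosome 5 (24319589 to 24351604, minus strand, GRCm38). It measured 12.3, 9.64, 11.6 and 11.1 FPKM in the 4 normal males and 12.3, 12.6, 12.7, 16.0 and 13.6 in the 5 dysbiotic males. Normal females had 14.7, 15.3, 13.4, 14.8 and 14.96 FPKM, and dysbiotic females 18.6, 18.95, 16.9, 19.5 and 17.0. Within each sex every dysbiotic heart lay above every normal heart, although in males the nearest values were equal to 3 digits. The fitted change was 0.27 ± 0.05 (log2, SE; limma adjusted p = 0.00296). Over both sexes Kcnh2 kept its call under all 28 alternative settings tried. Its transcript has 60.8% GC, a percentile of 97.5 among the tested genes. After a correction for GC content its change in females alone was 0.20 and did not pass (limma adjusted p = 0.130).

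Kcnj5 encodes Kir3.4, which forms the acetylcholine-activated channel with Kir3.1, the product of Kcnj3. Its levels were 11.6, 9.86, 13.1 and 9.39 FPKM in normal males and 12.3, 15.9, 11.4, 13.5 and 10.5 in dysbiotic males. In normal females they were 6.87, 9.06, 7.66, 8.40 and 8.04, and in dysbiotic females 12.4, 13.1, 9.77, 12.8 and 9.86. The female groups did not overlap, whereas the male groups did. The change over both sexes was 0.33 ± 0.08 (log2, SE; limma adjusted p = 0.0183), and without the filter on low values the adjusted p was 0.0524. Kcnj3 changed by 0.19 ± 0.07 and did not pass (limma adjusted p = 0.151). It did pass when the 4 albumin-extreme libraries were left out (0.30, adjusted p = 0.0141) and when normal male 1 was left out (0.24, adjusted p = 0.0478).

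Both subunits are known to be strong in atrial cells, so atrial content is given beside them. The summed level of 9 atrial markers, none of them at 0 on average, ranged from 1421 to 3549 FPKM in normal males, 2096 to 4250 in dysbiotic males, 1851 to 3107 in normal females and 2334 to 2787 in dysbiotic females. Nppa averaged 1716 FPKM and Myl7 594, so the sum mostly follows these genes. Normal males 2 and 4 had the lowest atrial sums of their group and also its lowest Kcnj3 and Kcnj5 levels. In dysbiotic males it was otherwise. Heart 2, with the lowest atrial sum, had the highest Kcnj5 (15.9 FPKM). Heart 3, with the highest atrial sum, had 11.4 FPKM of Kcnj5 and 13.3 of Kcnj3. In normal females, heart 1 was lowest and heart 2 highest in both the atrial sum and Kcnj5 (6.87 and 9.06 FPKM). The lowest Kcnj3 of that group was in heart 3 (11.0 FPKM). In dysbiotic females, heart 2 was highest in the atrial sum, Kcnj5 (13.1 FPKM) and Kcnj3 (18.4 FPKM). The lowest Kcnj5 of that group was in heart 3 (9.77 FPKM), which had an atrial sum of 2671 FPKM. None of the 9 atrial markers passed the test, and their median change was 0.19 (log2) over both sexes. The 8 conduction system markers summed to 6.08 to 7.74 FPKM in normal males and 6.54 to 9.43 in dysbiotic males. They summed to 4.76 to 6.48 in normal females and 6.16 to 8.23 in dysbiotic females. Of the 6 tested, 1 was higher in dysbiotic hearts over both sexes, where 3.03% of all genes were higher. By sex, 1 was higher in males, where 1.59% of all genes passed, and 0 passed in females, where 2.51% did. The part of atrial or conduction tissue in the Kcnj5 result was not tested.

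Kcna5 encodes Kv1.5, which carries an ultrarapid sustained current. It had 5.71, 8.32, 7.55 and 7.40 FPKM in normal males and 5.43, 5.93, 5.18, 6.197 and 4.89 in dysbiotic males. Normal females had 7.45, 8.39, 7.60, 9.04 and 8.93 FPKM, and dysbiotic females 8.39, 6.53, 7.12, 6.61 and 6.93. Both sexes overlapped through a single heart, normal male 1 and dysbiotic female 1. Kcna5 fell by 0.26 ± 0.06 (log2, SE; limma adjusted p = 0.0151), a call kept under all 28 alternatives.

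Kcnq1 encodes the pore of the slow delayed rectifier. Its levels were 7.46, 7.51, 8.04 and 7.79 FPKM in normal males and 6.28, 7.18, 6.38, 6.84 and 6.98 in dysbiotic males. Normal females had 7.38, 8.72, 8.79, 9.18 and 8.61 FPKM, and dysbiotic females 7.44, 8.003, 8.36, 7.51 and 7.41. The male groups did not overlap, and in females normal heart 1 lay below every dysbiotic heart while the other normal hearts lay above them all. Kcnq1 fell by 0.15 ± 0.04 (log2, SE; limma adjusted p = 0.0274). The call was lost without normal male 3 (adjusted p = 0.0674), normal male 4 (0.0534), normal female 3 (0.0533), normal female 4 (0.0600) or dysbiotic female 1 (0.0544). Kcne1, its partner, changed by -0.09 ± 0.05 and did not pass (limma adjusted p = 0.393).

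Kcnip3, which encodes KChIP3, a calcium-binding protein also known as DREAM and calsenilin, lay near the level taken here as expressed. It had 0.687, 0.620, 0.665 and 0.497 FPKM in normal males and 0.355, 0.486, 0.427, 0.407 and 0.463 in dysbiotic males. Normal females had 0.924, 0.879, 0.907, 0.967 and 0.699 FPKM, and dysbiotic females 0.746, 0.748, 0.694, 0.728 and 0.550. The male groups were separate and the female groups met at normal female 5. Kcnip3 fell by 0.16 ± 0.04 on the log2(FPKM + 1) scale (limma adjusted p = 0.0132), where the ratio of mean levels was 0.751. Without the 4 albumin-extreme libraries the adjusted p was 0.0689.

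**Figure D2:**
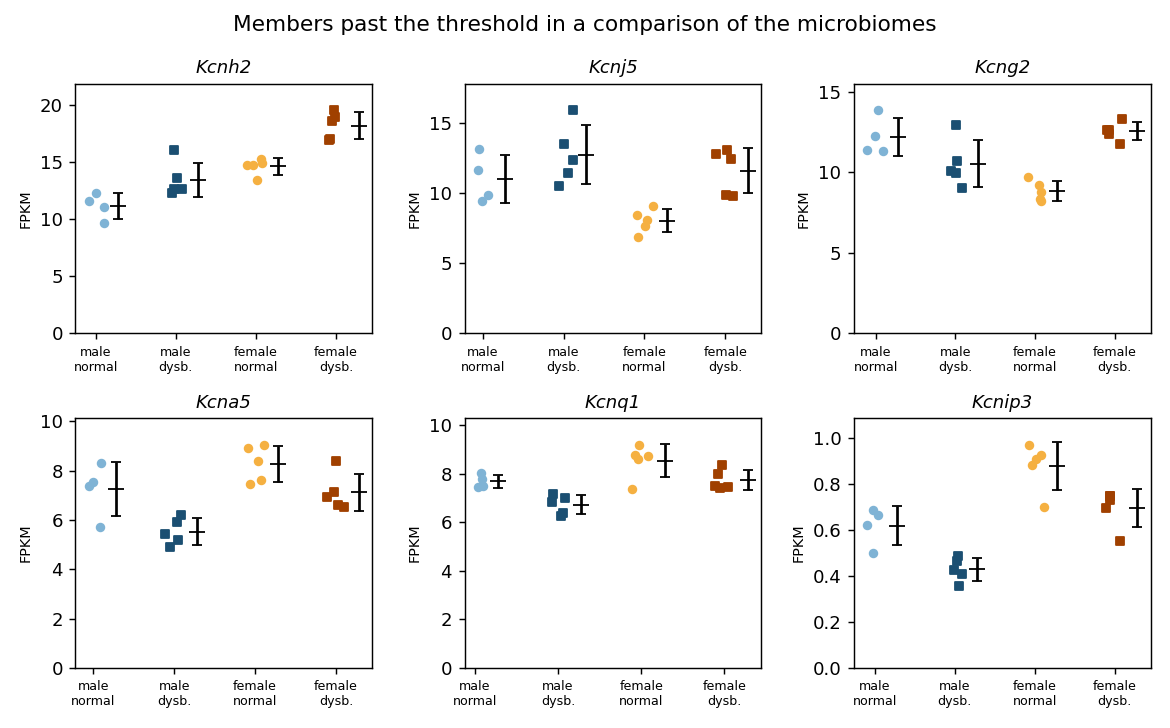
Level in each library (FPKM) of the 6 members that passed in a comparison of the microbiomes, by group, with bars for the mean and SD. Kcnh2 is higher in dysbiotic hearts of both sexes, Kcna5 and Kcnip3 are lower, and Kcng2 is higher in dysbiotic females (12.6 against 8.86 FPKM on average).

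The most abundant members did not pass. Kcnk3 changed by -0.02 (95% interval -0.13 to 0.09, log2), Kcnip2 by -0.02 (-0.13 to 0.09) and Kcnj11 by -0.02 (-0.10 to 0.07). Of the transient outward genes, Kcnd2 changed by -0.12 ± 0.05 (limma adjusted p = 0.152) and Kcnd3 by 0.11 ± 0.05 (adjusted p = 0.244). The ratio of Kcnd2 to Kcnd3 averaged 3.05 ± 0.612 (SD, n = 4) in normal males, 2.27 ± 0.329 (n = 5) in dysbiotic males, 2.54 ± 0.284 (n = 5) in normal females and 1.901 ± 0.304 (n = 5) in dysbiotic females. Kcnd3 passed only when the 4 albumin-extreme libraries were left out (0.19, limma adjusted p = 0.0411).

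Among the inward rectifiers, Kcnj2, the Kir2.1 gene, changed by -0.16 ± 0.05 (limma adjusted p = 0.0941) and Kcnj12 by 0.03 ± 0.05 (adjusted p = 0.840). Kcnj8 changed by 0.19 ± 0.05, with an adjusted p of 0.0545 that fell to 0.0313 under upper-quartile scaling, 0.0488 with a filter at 1 FPKM and 0.0350 after a correction for GC content. It also passed when normal male 4, normal female 2, dysbiotic female 4 or dysbiotic female 5 was left out (limma adjusted p 0.0281 to 0.0462). The summed smooth muscle and pericyte markers, a cell type in which Kcnj8 is known to be strong, ranged from 219 to 299 FPKM in normal males, 242 to 307 in dysbiotic males, 235 to 334 in normal females and 217 to 279 in dysbiotic females, and none of the 10 passed.

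Other listed members did not pass either. Among them were the silent subunit Kcnv2 (0.12), the tandem-pore channel Kcnk6 (0.04), the calcium-activated Kcnn1 (0.10) and Kcnn2 (0.10), and Kcnmb1 (-0.08, all log2). On none of the current lists were Kcna7, a Kv1.7 subunit (0.13), the auxiliary subunit Kcne4 (-0.05) and Kcnt2 (-0.01), and none of them passed. Without adjustment, 14 of the 26 tested members had p under 0.05, as did 17.1% of all genes tested. In the authors' deposited table, which compares the same groups over both sexes, 3 members had q under 0.05, among 534 genes in all, and no member was marked significant. These were Kcnq1 (fold 0.886, q = 0.00736), Kcna5 (fold 0.808, q = 0.0203) and Kcna4 (fold 1.80, q = 0.0115), while Kcnh2 had q = 0.202 in the authors' deposited table.

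Kcna4, named after its values were seen, lay below the filter. It had 0.125, 0.0617, 0.102 and 0.0730 FPKM in normal males and 0.170, 0.218, 0.229, 0.119 and 0.199 in dysbiotic males. Normal females had 0.0640, 0.160, 0.128, 0.0702 and 0.0654 FPKM, and dysbiotic females 0.161, 0.141, 0.147, 0.121 and 0.197. Both sexes overlapped between the microbiomes. With no filter it was the only untested member to pass in this comparison (0.10 ± 0.02 on the log2(FPKM + 1) scale, limma adjusted p = 0.0361).

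**Figure D3:**
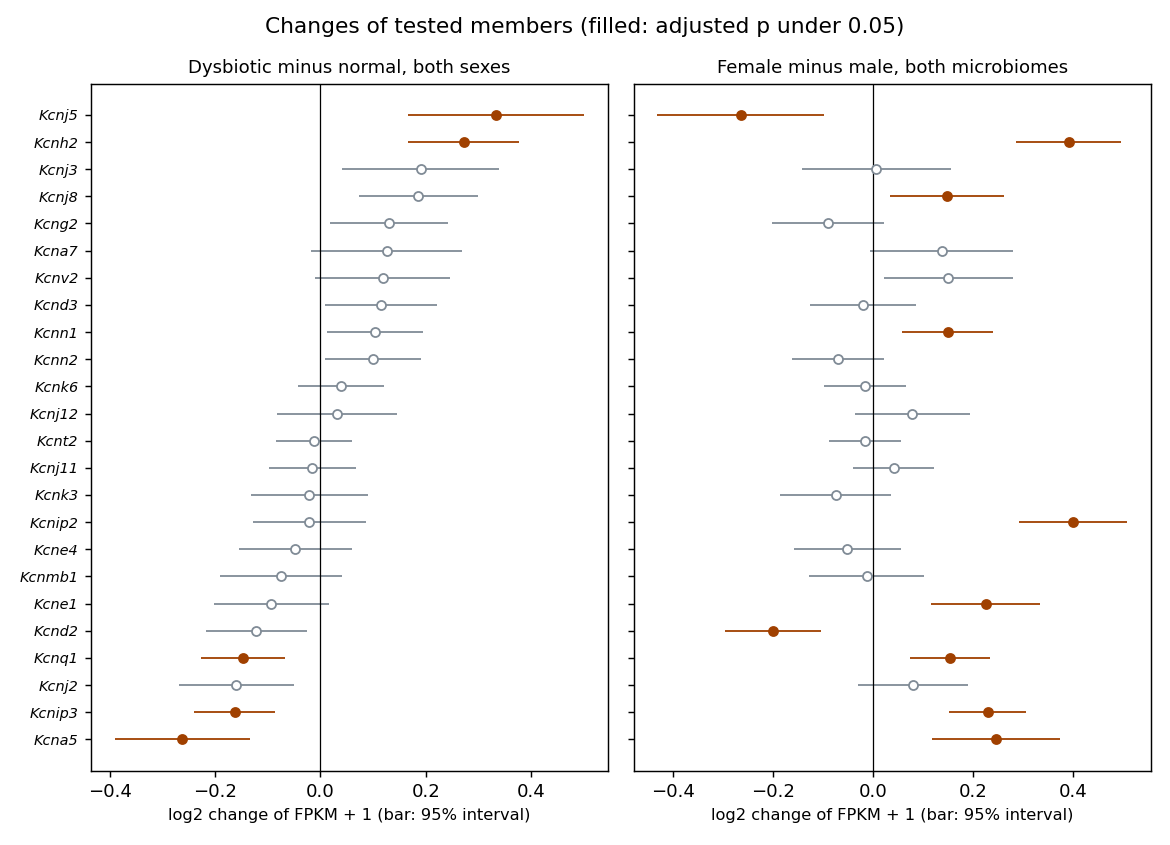
Fitted log2 change of FPKM + 1 with its 95% interval for 24 of the 26 tested members, dysbiotic minus normal on the left and female minus male on the right; filled points have an adjusted p under 0.05. On the left Kcnj5 and Kcnh2 are higher and Kcna5, Kcnip3 and Kcnq1 lower, and on the right Kcnip2 and Kcnh2 have the largest differences.

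In males alone, no member passed with limma, against 1.59% of all genes tested, and 7 members had an unadjusted p under 0.05, as did 13.1% of all genes. The smallest adjusted p-values were 0.0694 for Kcna5 (-0.33 ± 0.09), 0.101 for Kcnj8 (0.27 ± 0.08) and 0.106 for Kcnh2 (0.25 ± 0.07). Kcna5 passed without normal male 1 (-0.43, limma adjusted p = 0.0104) or without the albumin-extreme libraries (-0.39, adjusted p = 0.0340). Kcng2 passed without dysbiotic male 5 (-0.27, limma adjusted p = 0.0475). After median-ratio scaling, Kcnip3 (adjusted p = 0.0385) and Kcnq1 (0.0486) were lower in dysbiotic males.

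In females alone, 3 members were higher with the dysbiotic microbiome and none was lower. Of all genes tested, 2.51% passed and 1.71% were higher. Kcng2 changed by 0.46 ± 0.07 (limma adjusted p = 0.00239), Kcnj5 by 0.48 ± 0.11 (adjusted p = 0.0243) and Kcnh2 by 0.30 ± 0.07 (adjusted p = 0.0261). Median-ratio scaling added Kcnj2 as lower (-0.29, adjusted p = 0.0444). Kcnj5 and Kcnh2 each lost the call when normal female 1 or 3, or dysbiotic female 1, 2 or 4, was left out, with limma adjusted p-values of 0.0585 to 0.0731 for Kcnj5 and 0.0581 to 0.0792 for Kcnh2. Kcnh2 also lost it without normal female 4 (adjusted p = 0.0594) and after the GC correction (0.130). The GC correction also called 3 members in females, while 427 of all genes passed, against 326 without it. Of the 3 above it kept Kcnj5 alone. It added Kcnj2 as lower (-0.28, limma adjusted p = 0.0393) and Kcnj3 as higher (0.32, adjusted p = 0.0485).

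Further members lay near the threshold in females. Kcnj2 had 7.80, 7.61, 8.09, 7.98 and 7.70 FPKM in normal females and 5.90, 7.27, 5.71, 6.58 and 6.40 in dysbiotic females, which did not overlap (-0.26 ± 0.07, limma adjusted p = 0.0574). Kcnn2, a small-conductance calcium-activated channel, averaged 0.696 ± 0.0619 (SD, n = 5) FPKM in normal females and 0.969 ± 0.0873 (n = 5) in dysbiotic females, again without overlap (limma adjusted p = 0.0667). Kcnj3 changed by 0.34 ± 0.10 (limma adjusted p = 0.0775). All 3 passed when the fit held female libraries only, with adjusted p of 0.0253, 0.0341 and 0.0233. Kcnj2 also passed without normal male 2 (limma adjusted p = 0.0486), dysbiotic male 3 (0.0143) or dysbiotic female 2 (0.0362), Kcnn2 without dysbiotic male 2 (0.0334), and Kcnj3 without normal male 1 (0.0477) or without the 4 albumin-extreme libraries (0.41, adjusted p = 0.0297).

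The responses of the sexes differed for 1 member, Kcng2, which encodes a silent Kv6 subunit that forms channels only together with other voltage-gated subunits; 0.354% of all genes tested passed. It measured 12.3, 11.4, 13.9 and 11.4 FPKM in normal males and 10.7, 10.1, 9.04, 9.99 and 13.0 in dysbiotic males. Normal females had 8.34, 9.70, 8.78, 9.24 and 8.25 FPKM, and dysbiotic females 12.4, 11.8, 12.6, 12.7 and 13.3. The female groups were well apart, and in males dysbiotic heart 5 lay among the normal hearts. The female response exceeded the male response by 0.66 ± 0.11 (log2, SE; limma adjusted p = 0.00495).

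Base composition moved with the Kcng2 result. Its transcript has 71.6% GC, a percentile of 99.95 among the tested genes, and a correction of each library for transcript GC turned the female change to -0.07 (limma adjusted p = 0.686) and the difference between sexes to -0.13 (adjusted p = 0.711). Scand1 had a like pattern, averaging 5.39 FPKM in normal males, 0.850 in dysbiotic males, 0.506 in normal females and 8.43 in dysbiotic females. Within the dysbiotic males, heart 5 was highest in both Kcng2 and Scand1 (1.96 FPKM). Dysbiotic female 1 went against the likeness, with Scand1 at 1.72 FPKM where the rest of its group had 6.97 to 13.3, while its Kcng2 level of 12.4 FPKM lay within the range of that group. The transcript D330025C20Rik overlaps Kcng2 on the opposite strand over 272 of its 2989 exonic bases and averaged 0.586 FPKM in normal and 1.11 in dysbiotic females. Whether the libraries keep strand is not given in the sources used here. The same limit holds for Kcnj3, overlapped by Gm26794 over 1621 of 5215 exonic bases. To a lesser extent it holds for Kcnn2 (AC121957.1 and A330093E20Rik, 607 of 7468) and Kcnk3 (Gm9899, 229 of 3976). Smaller overlaps were those of Kcnq1 (Kcnq1ot1, 121 of 4093, itself at 0.0124 FPKM) and Kcnn1 (A230052G05Rik, 132 of 4587). Kcnd3 (Kcnd3os, 165 of 9587) and Kcnt2 (4930590L20Rik, 102 of 6895) had such overlaps as well. The part of GC content or of the overlapping transcript in the Kcng2 result was not tested further.

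Kcnj5 and Kcnh2, which passed in females and not in males, were not shown to respond differently by sex. The difference in response was 0.29 ± 0.16 for Kcnj5 (limma adjusted p = 0.754) and 0.05 ± 0.10 for Kcnh2 (adjusted p = 0.955). For Kcnn2 it was 0.23 ± 0.09 (adjusted p = 0.520) and for Kcnip2 0.26 ± 0.10 (adjusted p = 0.569).

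**Figure D4:**
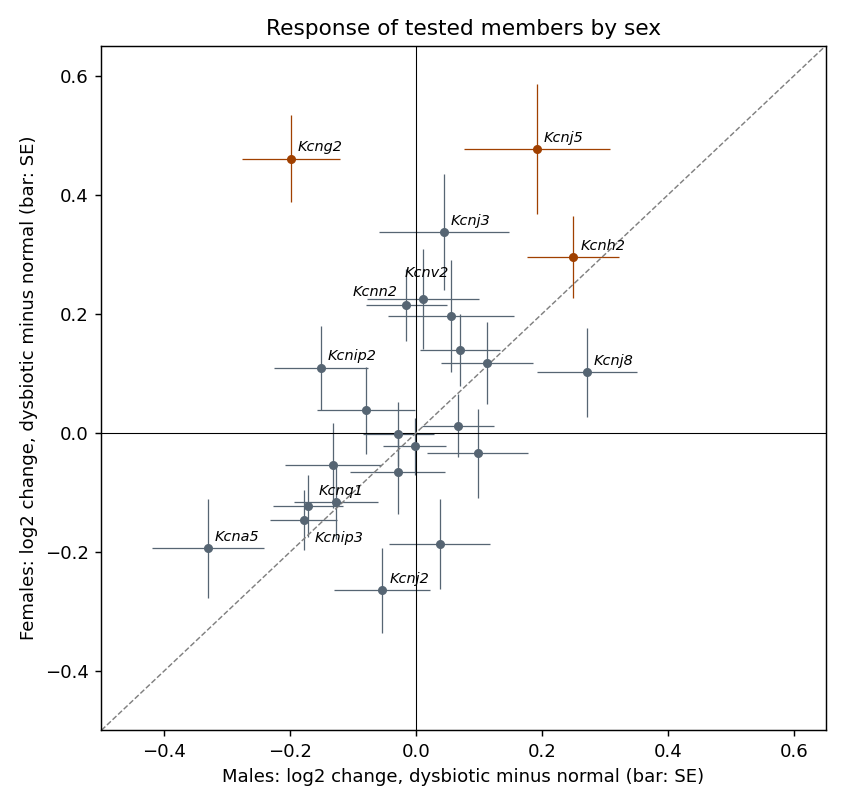
Change of 24 of the 26 tested members in males (horizontal) and females (vertical), dysbiotic minus normal, log2 of FPKM + 1, with bars for the SE and a dashed line of equal change; orange points passed in females. Kcng2 lies far from the line (-0.20 in males, 0.46 in females), whereas Kcnh2 and Kcna5 lie on the same side of 0 in both sexes.

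Between females and males, averaged over the microbiomes, 11 of the 26 tested members (42.3%) passed, against 28.4% of all genes tested. In females 9 were higher and 2 lower, where 21.3% of all genes were higher and 7.11% lower. The split became 7 higher and 4 lower under median-ratio or upper-quartile scaling, and 4 higher and 4 lower after the GC correction. The split over all genes moved too. Of the 3684 genes that passed in the main fit, 74.9% were higher in females. That share was 49.3% of 3751 under median-ratio scaling, 51.8% of 3713 under upper-quartile scaling and 54.8% of 3344 after the GC correction. Kcnip2, Kcnh2, Kcnip3 and Kcne1 were higher and Kcnd2 and Kcnj5 lower under all 3 of these settings. Kcnq1 and Kcna5 were higher under median-ratio and upper-quartile scaling. After the GC correction they did not pass (limma adjusted p = 0.135 and 0.0609).

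Markers of other cell types also differed between the sexes. Of the tested markers, 5 of 10 for endothelial cells were higher in females and 1 lower, 3 of 5 for adipocytes were higher, and 3 of 9 for macrophages and monocytes were higher. For ventricular myocytes 2 of 6 were higher, and for Schwann cells and neurons 1 of 8. For fibroblasts 1 of 10 was higher and 1 lower. No tested marker on the other lists passed. Of all genes tested, 21.3% were higher and 7.11% lower. The summed endothelial markers ranged from 304 to 326 FPKM in normal males, 314 to 350 in dysbiotic males, 326 to 370 in normal females and 320 to 360 in dysbiotic females. The summed adipocyte markers ranged from 5.41 to 16.0 FPKM, 3.73 to 27.8, 18.3 to 73.5 and 30.9 to 61.2 in the same order. Macrophage and monocyte markers summed to 126 to 169, 141 to 163, 148 to 176 and 151 to 162 FPKM in that order. Fibroblast markers summed to 513 to 622, 570 to 598, 669 to 721 and 628 to 730 FPKM. By that sum every female heart lay above every male heart, and Gsn, at 451 FPKM on average, led it. None of these markers averaged 0, and their part in the differences of the members was not tested.

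The transient outward genes went in opposite directions. Kcnip2 ranged from 21.6 to 30.7 FPKM in the 9 males with a median of 26.1, and from 33.5 to 41.1 in the 10 females with a median of 36.0. The sexes did not overlap, and females were higher by 0.40 ± 0.05 (log2, SE; limma adjusted p = 1.70e-05). Its alpha subunit partner Kcnd2 ran from 1.79 to 2.64 FPKM in males (median 2.36) and from 1.55 to 2.38 in females (median 1.86). Kcnd2 was lower in females (-0.20 ± 0.05, limma adjusted p = 0.00309), with overlapping ranges. Kcnd3 did not pass (-0.02 ± 0.05, adjusted p = 0.797). The ratio of Kcnip2 to Kcnd2 averaged 11.6 ± 1.24 (SD, n = 4) in normal males, 11.8 ± 1.14 (n = 5) in dysbiotic males, 17.3 ± 2.14 (n = 5) in normal females and 21.2 ± 2.81 (n = 5) in dysbiotic females.

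Delayed rectifier genes were higher in females. Kcnh2 ranged from 9.64 to 16.0 FPKM in males (median 12.3) and from 13.4 to 19.5 in females (median 16.1), a difference of 0.39 ± 0.05 (limma adjusted p = 1.72e-05). Kcnq1 was higher by 0.15 ± 0.04 (adjusted p = 0.00556) and Kcne1 by 0.23 ± 0.05 (adjusted p = 0.00364). Kcne1 ranged from 0.412 to 0.799 FPKM in males (median 0.571) and from 0.633 to 1.10 in females (median 0.840). Kcna5 was higher by 0.25 ± 0.06 (limma adjusted p = 0.00568). Kcnv2 did not pass (0.15 ± 0.06, limma adjusted p = 0.0737), but did without dysbiotic male 2 (0.0248) or normal female 3 (0.0480).

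Among the other members, Kcnip3 was higher in females by 0.23 ± 0.04 (limma adjusted p = 0.000173) and Kcnn1 by 0.15 ± 0.04 (adjusted p = 0.0158). Kcnj8 was higher by 0.15 ± 0.05, at an adjusted p of 0.0482 that stayed under 0.05 in 8 of 28 alternatives. Of the 19 fits that left out a single library it passed in 5, those without normal male 4, dysbiotic male 5, normal female 1, dysbiotic female 4 or dysbiotic female 5. In the other 14 the limma adjusted p was 0.0537 to 0.108. Kcnj5 was lower in females (-0.27 ± 0.08, adjusted p = 0.0186), and 0.0541 without the albumin-extreme libraries. The GC correction ended the calls of Kcnq1 (limma adjusted p = 0.135), Kcna5 (0.0609), Kcnn1 (0.372) and Kcnj8 (0.128). Kcnn1 also missed the threshold under median-ratio (0.0578) and upper-quartile scaling (0.0523). Kcnk3 and Kcng2 did not pass on the levels as deposited (-0.08 and -0.09, limma adjusted p = 0.309 and 0.220). Both were lower in females after median-ratio scaling (-0.14 and -0.15, adjusted p = 0.0267 and 0.0373). They also were under upper-quartile scaling (-0.13 and -0.14, adjusted p = 0.0282 and 0.0403). After the GC correction the values were -0.16 and -0.29 (adjusted p = 0.00512 and 0.000321).

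**Figure D5:**
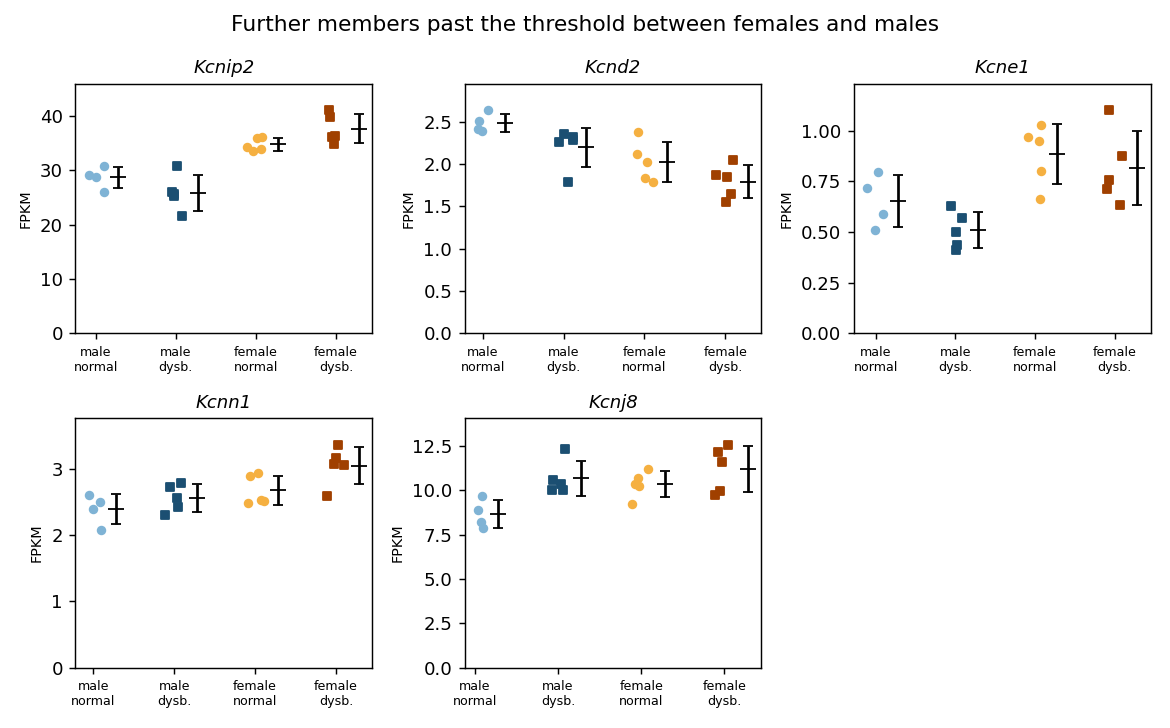
Level in each library (FPKM) of 5 further members that passed between females and males, by group, with bars for the mean and SD. Kcnip2 is higher in each female heart than in any male heart, and Kcnd2 is lower in females on average.

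The other 4 inward rectifiers tested did not pass between the sexes with all libraries in the fit. Kcnj11 differed by 0.04 (95% interval -0.04 to 0.12, log2), Kcnj2 by 0.08 (-0.03 to 0.19), Kcnj12 by 0.08 (-0.04 to 0.19) and Kcnj3 by 0.01 (-0.14 to 0.16). Kcnj12 did pass without the 4 albumin-extreme libraries (0.16, limma adjusted p = 0.0383). These intervals do not show that the levels are equal.

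Genes outside the family that act on these channels were taken from a list of 26 partners and regulators, of which 25 were in the table and 22 were tested. Over both sexes, 1 was higher and 2 lower in dysbiotic hearts, where 3.03% of all genes were higher and 2.01% lower. Lrrc52, which encodes a leucine-rich repeat protein known to modulate large-conductance channels, had 3.41, 5.16, 4.98 and 4.78 FPKM in normal males and 1.72, 3.13, 2.02, 2.85 and 1.67 in dysbiotic males. In females it had 3.53, 3.24, 3.43, 3.93 and 3.55 FPKM with the normal and 2.03, 1.92, 2.27, 1.85 and 2.18 with the dysbiotic microbiome. The microbiomes did not overlap in either sex, and Lrrc52 fell by 0.68 ± 0.08 (log2, SE; limma adjusted p = 7.41e-05). Kcnma1, the pore gene of the large-conductance calcium-activated channel, averaged only 0.0203 FPKM and was not tested.

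Klf15 encodes a factor known from mice to drive daily rhythms of Kcnip2. It averaged 19.2 ± 1.25 (SD, n = 4) FPKM in normal and 13.8 ± 0.900 (n = 5) in dysbiotic males, and 26.5 ± 2.90 (n = 5) and 17.3 ± 2.58 (n = 5) in females. Klf15 fell by 0.52 ± 0.06 (limma adjusted p = 7.38e-05), while Kcnip2 did not pass. Nedd4l, a ubiquitin ligase that acts on channels, was higher by 0.11 ± 0.03 (adjusted p = 0.0281). Irx5, a repressor of Kcnd2 in mice, changed by 0.25 ± 0.09 and did not pass (adjusted p = 0.137), and Irx3 passed in females (0.46 ± 0.12, adjusted p = 0.0381). The sulfonylurea receptors Abcc8 and Abcc9, the regulatory subunits of ATP-sensitive channels, did not pass between the microbiomes (-0.04 ± 0.05 and -0.04 ± 0.04, limma adjusted p = 0.769 and 0.677).

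Between the sexes, 8 of the 22 tested partners were higher in females and 4 lower, where 21.3% of all genes were higher and 7.11% lower. Among the higher ones were Irx3 (0.37), Klf15 (0.37), Abcc8 (0.23), Nedd4l (0.12), Amigo1 (0.12) and Abcc9 (0.11). The lower ones were the channel-associated LIM protein gene Fhl2 (-0.46), caveolin-3 Cav3 (-0.32), Rgs4 (-0.17) and ankyrin-B Ank2 (-0.13, all log2, limma). Abcc9 lay at the threshold (adjusted p = 0.049995).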

How the data were processed

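RNA was measured in 19 mouse hearts. The authors deposited 1 table of FPKM per gene and library, with their own fold (ratio), log2 fold, p-value and q-value for dysbiotic against normal hearts. Per the submitters' processing notes, the tools were cutadapt 1.9, HISAT2 2.0.4, StringTie 1.3.4d and DESeq2; the notes name a human build, whereas 99.7% of the gene identifiers are mouse identifiers of GENCODE M21, from which coordinates (GRCm38) were taken. FPKM are shares of a library, so an abundant gene lowers the others.

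From the deposited FPKM, log2(FPKM + 1) was fitted with limma 3.58.1 (R 4.3.3; 4 group means, all 19 libraries, trend and robust), for the 12989 genes that 4 or more libraries held at 0.5 FPKM or more. Tests were two-sided with Benjamini-Hochberg adjustment over all tested genes at 0.05. On simulated data with a log2 change of 0.5, the fit recovered 95.5% of changed genes in the comparison averaged over sex, 87% in the male and 88% in the female comparison. False calls numbered 15, 11 and 7 in that order. Every tested member changed by less than 0.5 in these comparisons. The largest changes were 0.33 (Kcnj5), -0.33 (Kcna5) and 0.48 (Kcnj5) in the same order. Recovery of changes of that size or smaller was not measured. Members, gene lists and tests were chosen with earlier results of these data known. Text names every tested member that passed, every expressed member of a current list and members next to the expression level, except some genes that are not reported here; all members stay in the counts. Promoter sequences are RefSeq's; 66 of 91 members had one. Depth limits precision, and FPKM give no counting interval.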

Additional observations from a re-analysis of the deposited data

Results flagged for a closer look

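Within single groups of named members, 4 of 100 groups examined held a heart whose gap to the nearest other, divided by the range of the group, was above Dixon's 95% critical value. By the construction of that value, chance gives about 1 in 20. Kcnip3 was 0.55 FPKM in dysbiotic female 5, with the others between 0.694 and 0.748. Kcnj8 was 12.4 FPKM in dysbiotic male 5, with the others between 10 and 10.6. Kcnd2 was 1.79 FPKM in dysbiotic male 3, with the others between 2.26 and 2.36. Kcnj12 was 6.33 FPKM in normal female 2, with the others between 5.88 and 5.96. The response of Kcng2 to the dysbiotic microbiome differed between the sexes by 0.66 (log2, female minus male) in a test of the difference itself.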

How the results depend on the processing

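Over both sexes, 4 to 7 members passed when single libraries were left out, and 10 to 11 passed between the sexes. In males the count of 0 became 2 under median-ratio scaling, 1 under upper-quartile scaling and 2 with the GC correction. Calls over all genes in males rose too, from 206 to 314, 296 and 296 in that order. The male count was 1 without the 4 albumin-extreme libraries, and 0 to 1 when single libraries were left out. In females the count of 3 became 1 with no filter, 6 with female libraries only, and 1 to 4 when single libraries were left out. It was 1 without normal female 1 or 3 or dysbiotic female 1 or 4. Calls over all genes are not given here for fits with another filter, with fewer libraries or with a block. The member counts of those fits therefore have no share beside them. The GC correction gave 0 members for the difference between the sexes, and reversed Kcng2 to -0.0723 in females and -0.133 for that difference. Of all genes, 61 passed for that difference with the GC correction, against 46 in the main fit. The albumin and GC alternatives were chosen after seeing the data. Causes of these changes were not tested.

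Over all genes, the share of calls that were higher moved with scaling: from 60.1% to 44.2% over both sexes, 51.5% to 40.8% in males, 68.1% to 52.7% in females and 74.9% to 49.3% between the sexes under median-ratio scaling. With the replicate number as a block, 5, 0, 3, 1 and 10 members passed in the 5 comparisons, and only Kcnj8 between the sexes was lost. Same-numbered libraries deviated together no more than others (median correlation -0.02 against -0.01), so the numbers were not taken as pairs.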
